A study of Mus musculus with 4 samples.

Results

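The cytosolic ribosomal protein genes encode the proteins of the large (Rpl) and small (Rps) subunits of the ribosome that translates messenger RNA outside mitochondria. They were taken by symbol: Rpsa, Rplp0 to Rplp2, and each name starting with Rpl or Rps followed by a digit, without the Rps6k kinases and the pseudogenes named -ps, and with at least 200 UMIs (unique molecular identifiers, each standing for 1 captured transcript) summed over all cells. Of 27998 genes in the count table, 84 met the rule, 50 with large subunit names and 34 with small subunit names. By symbol 87 were left, and 3 of those lay under the minimum, namely Rpl3l and Rpl10l with 0 UMIs and Rpl39l with 60. The members just inside it were Rps19bp1 with 1419 UMIs and Rpl7l1 with 2693.

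The cells were thymic regulatory T (Treg) cells, the CD4 lineage that holds immune responses in check, from mice aged 3 weeks, sorted by the phenotype CD4+CD8-Thy1.1+GFP+. All mice carried Rag2-Gfp, whose GFP marks recently formed T cells, and Foxp3-Thy1a, which puts Thy1.1 on cells that express Foxp3, on a B6 background. There was 1 sample for each of 4 genotypes, IL2 wt/wt, IL2 o/o (the knockout), IL15 wt/wt and IL15 o/o (the knockout), and the series asks what IL-2 and IL-15 contribute to Treg development. The number of animals pooled per sample is not stated. Cell barcodes end in a suffix from 1 to 4, called libraries 1 to 4 below, and no label ties a suffix to a genotype. Every value below therefore describes a library or a class of cells, no genotype is compared, and cells are not treated as replicates.

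The 4 libraries held 1609, 2452, 2037 and 2175 cells with medians of 3857, 3640, 2501 and 3019 UMIs per cell, and library 3 stood apart in depth, in Il2ra, and in lower Treg and NK markers. At least 1 UMI of Il2ra, which encodes the alpha subunit of the IL-2 receptor, was found in 39.2%, 39.4%, 6.82% and 32.2% of their cells. Of these, 1557, 2317, 1622 and 1951 cells could be thinned to 1811 UMIs, and shallower cells were left out. After thinning Il2ra was found in 22.5%, 23.6%, 4.75% and 21.1% of them. Among the 69 cells with 10 or more UMIs of double-positive thymocyte markers, which should hold little Il2ra, the share was 15.9% at a median of 2124 UMIs. It was 14.9% after thinning of the 47 cells deep enough for it. Library 3 lay below this level. The 69 cells were pooled over all libraries, so the level is not library 3's own background. Whether Il2ra in library 3 was above background was therefore not settled. The level itself rests on 11 cells with Il2ra, 7 after thinning, so it is only a rough guide. Library 3's cells with an Il2ra UMI still enter the comparisons by Il2ra below. The libraries shared 27 barcodes in pairs. T cell markers (5 of 6 matched) summed to 3621 to 4289 CPM (UMIs scaled to 1000000 per library) and Treg markers to 3027 CPM in library 3 and 3953 to 4392 CPM in the others. The 8 double-positive markers summed to 54.4 to 116 CPM. The 6 myeloid markers, Itgax at 0, summed to 192 to 237 CPM, the 5 NK markers, Ncr1 at 0, to 43.0 CPM in library 3 and 130 to 216 CPM in the others, and the 5 thymic epithelial markers, Foxn1 at 0, to 15.1 to 18.4 CPM. The 4 erythroid markers reached 1873 CPM in library 3 and 0 to 6.21 CPM elsewhere, with 2 cells at 10 or more such UMIs.

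Each ribosome contains 1 copy of most ribosomal proteins, so their synthesis is kept roughly in step, and surplus protein is degraded. Much of that control acts on translation: transcripts of these genes begin with a C followed by a run of pyrimidines, the 5′ terminal oligopyrimidine (TOP) motif, through which mTORC1 and LARP1 set how much is translated. When T cells are activated, MYC and mTORC1 raise ribosome production, including the nucleolar factors that make and assemble ribosomal RNA. A 3′ UMI count reports the amount of transcript and not its translation.

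The start sites of members that differ most in the comparisons below are given first, since the TOP motif lies there. Each line is a window of 30 bases centred on the RefSeq start (GRCm38.p6), 5′ to 3′ on the transcript strand, with the longest run of C and T in capitals.
Rps27 (chr3:90213634-90213663, minus strand): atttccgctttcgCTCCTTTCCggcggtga
Rps15a (chr7:118116133-118116162, minus strand): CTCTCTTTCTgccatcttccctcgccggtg
Rpl13a (chr7:45128731-45128760, minus strand): gaaaccctgcgacaagaCCTCCTCCTTTCC
Rps2 (chr17:24720048-24720077, plus strand): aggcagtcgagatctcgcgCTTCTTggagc
Rps12 (chr10:23787195-23787224, minus strand): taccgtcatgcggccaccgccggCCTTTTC
Rpsa (chr9:120127751-120127780, plus strand): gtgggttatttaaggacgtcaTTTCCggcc
Rps27l (chr9:66946071-66946100, plus strand): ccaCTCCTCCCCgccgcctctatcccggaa
Rpl7l1 (chr17:46782642-46782671, minus strand): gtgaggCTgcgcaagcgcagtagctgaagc

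Among 63 members matched to the RefSeq promoter table, 25 (39.7%) had a run of 8 or more pyrimidines in this window, against 3205 of 27025 genes (11.9%). The letters CTTTC were present on the transcript strand of 16 members (25.4%) and of 3.97% of all genes. On the opposite strand they were present in 3 members (4.76%) and 3.43% of all genes. CTTTC is itself made of pyrimidines, so both counts overlap. Mitochondrial ribosomal protein genes had the run in 9 of 69 windows (13.04%). The windows above show that the run is long in Rps27, Rps15a and Rpl13a and short in Rps2, Rpsa and Rpl7l1, while Rps27l also has a long one. Rps12 has a run of 7 bases. The runs of Rps12 and Rpl13a reach the right edge of the window and that of Rps15a the left edge, so these may be longer than shown. The runs of Rps15a and Rps27l end before the centre of the window, upstream of the annotated start. These matches describe annotated starts, and starts in Treg cells were not measured.

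Some members cannot be told apart from near copies by a 3′ read that falls in shared sequence. Rps27 (chr3:90212522-90213651, GRCm38) is spliced, and Rps27rt (chr9:114982366-114982739) has 1 exon, yet their coding sequences of 255 bases are identical. Rps27l, which has the same length, differs at 61 positions (76.1% identity), shown in capitals below against the shared Rps27 and Rps27rt sequence.
Rps27 and Rps27rt: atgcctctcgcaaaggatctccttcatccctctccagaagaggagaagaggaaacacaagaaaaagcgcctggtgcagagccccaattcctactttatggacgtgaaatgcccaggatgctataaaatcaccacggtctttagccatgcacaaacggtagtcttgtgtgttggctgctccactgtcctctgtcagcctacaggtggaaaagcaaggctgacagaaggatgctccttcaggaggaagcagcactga
Rps27l: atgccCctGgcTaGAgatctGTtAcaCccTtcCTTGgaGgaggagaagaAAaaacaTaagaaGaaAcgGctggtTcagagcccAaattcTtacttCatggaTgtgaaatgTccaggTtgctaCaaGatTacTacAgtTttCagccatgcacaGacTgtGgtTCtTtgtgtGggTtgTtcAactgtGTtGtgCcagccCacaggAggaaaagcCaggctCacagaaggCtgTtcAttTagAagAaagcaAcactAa

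Rps27 and Rps27rt are therefore uncertain as separate genes and their sum is also given. Of the 31-base words in their last 300 bases, 84.4% and 90.7% also occur in other genes, so reads separate them only in part. Rpl6l, on chromosome 10, is annotated as a processed pseudogene with 1 exon, and 100% of the 31-base words in its last 300 bases also occur in other genes. Such sharing is common here: 62 of the 84 members had 50% or more of these words in other genes, with a median of 66.6%, so levels of single members depend on how shared reads were assigned. Rps19bp1 matches the letters of the rule but encodes a protein that binds Rps19, not a part of the ribosome.

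Ribosomal protein transcripts made up a large part of all RNA counted in these Treg cells. The members held 10220033 of 33232250 UMIs, 30.75% (exact Clopper-Pearson interval 30.74% to 30.77%, as every interval below at 95% and for counting error only). By library the share was 31.98% (31.94% to 32.01%), 30.10% (30.07% to 30.12%), 30.61% (30.58% to 30.65%) and 30.58% (30.55% to 30.61%) for libraries 1 to 4, and the highest was 1.06 times the lowest. Library 1 was highest and library 2 lowest, with intervals that did not overlap. Single cells varied far more, from 0.842% to 47.3% at the extremes, with library medians of 31.6%, 29.7%, 29.5% and 30.2%. The 5% and 95% points of the cells were 23.5% and 39.8% in library 1 and 21.3% and 37.6% in library 2. They were 21.0% and 37.8% in library 3 and 21.5% and 37.8% in library 4. In the cells deep enough to be thinned to 1811 UMIs, the shares after thinning were 31.6%, 29.8%, 30.4% and 30.4%.

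Per gene, levels spanned over 2 orders of magnitude, although most members lay close together. The 3′ assay takes about 1 read position per transcript, so CPM were compared between genes without division by length. Rpl41, a very short large subunit protein, held the most UMIs over all libraries, with 9424, 8523, 8928 and 9184 CPM in libraries 1 to 4. In library 3 Rps27 was above it at 9184 CPM, and Rps27 and Rps27rt summed gave 9135 CPM over all cells against 8973 for Rpl41. Rps29 followed with 8494, 7447, 8665 and 7783 CPM, then Rpl13a with 7754, 7715, 8314 and 7679 CPM. Rps15a lay below both in each library, while Rps27 lay above both in library 3 and below both elsewhere. At the other end, Rps19bp1 had 41.4, 45.9, 35.9 and 44.2 CPM, and Rpl7l1, a paralogue of Rpl7 known from ribosome assembly, had 78.2, 86.8, 68.6 and 84.4 CPM. Rps27l, Rpl6l and Rpl36al were the next lowest.

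**Figure D1:**
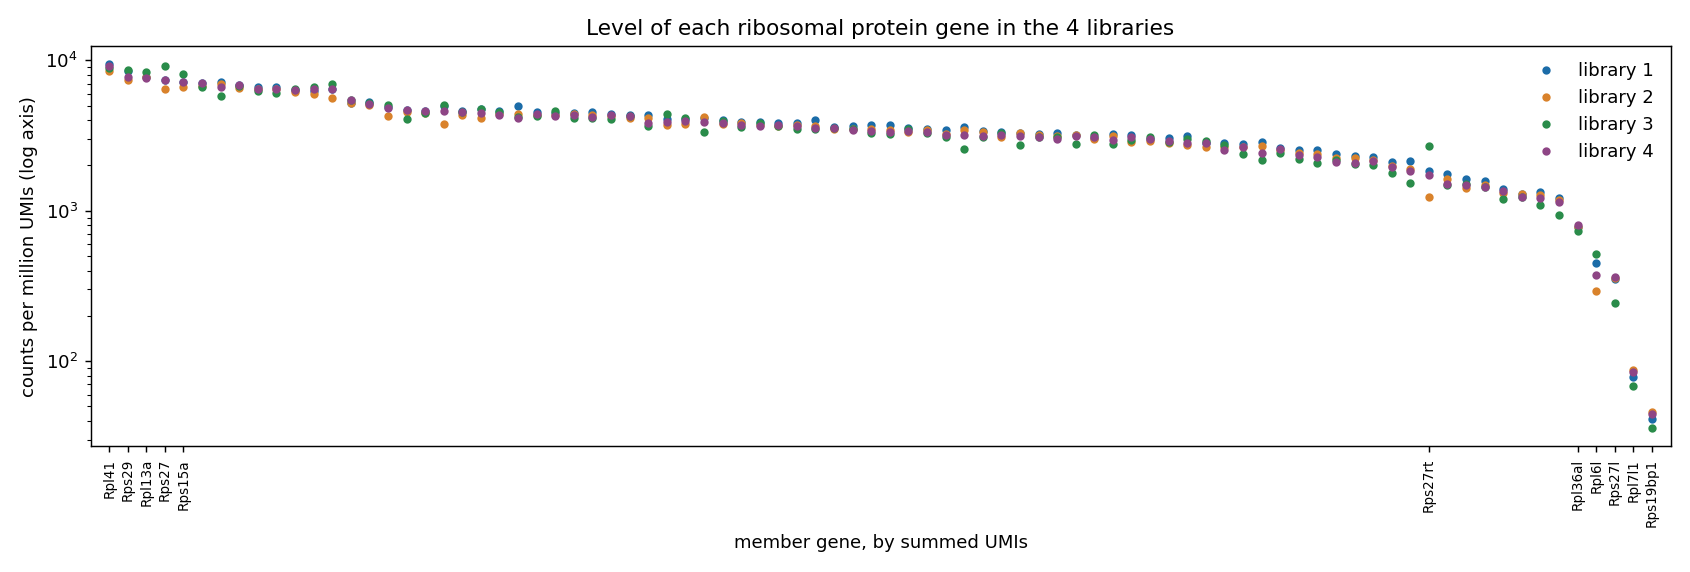
Level of each of the 84 member genes in CPM (log axis) against the members ordered by summed UMIs, with 1 point per library and names for the 5 most and 5 least abundant members and Rps27rt. The points of a gene mostly lie on each other, from Rpl41 at the left to Rps19bp1 at the right, and Rps27rt and Rpl6l spread most.

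Paralogues were expressed at unequal levels in several pairs. Rpl22, an RNA-binding protein of the large subunit needed for development of alpha-beta T cells, had 1402, 1311, 1205 and 1350 CPM, and its paralogue Rpl22l1 had 1294, 1300, 1241 and 1225 CPM. That pair was close in level, with Rpl22l1 above Rpl22 in library 3 only. Rpl36a had 2531, 2389, 2082 and 2291 CPM against 781, 784, 733 and 800 CPM for Rpl36al. Rpl7 had 2597, 2514, 2413 and 2553 CPM, far above Rpl7l1. The share of 3′ words found in other genes was uneven within these pairs, with 13.2% for Rpl22 and 64.3% for Rpl22l1, 100% for Rpl36a and 70.6% for Rpl36al, and 85% for Rpl7 and 22.7% for Rpl7l1. Rpl39 had 4956, 4382, 4167 and 4144 CPM, while Rpl39l had 60 UMIs in all. Of the acidic stalk proteins, which recruit translation factors to the ribosome, Rplp0 had 7219, 6983, 5771 and 6656 CPM, Rplp1 had 3733, 3467, 3288 and 3409 CPM and Rplp2 had 3988, 3684, 3482 and 3553 CPM. Rplp0 was therefore above both partners in every library.

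Between libraries the number of members called depended on the fold asked for. A gene was called when its highest library was at least 1.2 times its lowest and their exact Poisson intervals did not overlap. Of the 84 members 17 were called, where 46.5% of the 8071 genes with 200 or more UMIs were. At 1.1-fold 47 members were called, against 51.1% of all genes, and the other 37 lay under that fold. At 1.5-fold only Rps27rt and Rpl6l remained, against 24.7% of all genes. Library 3 was an extreme in each of the 17: it was lowest for 11 of them and highest for 6. Without library 3 there were 3 called members, Rps27rt, Rpl6l and Rps28, and the share of all genes called was 13.9%.

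The members that were low in library 3 included several of the small subunit. Rps2, which sits at the entry of messenger RNA into the small subunit, had 3590, 3439, 2587 and 3171 CPM, a ratio of 1.39. Rps12 had 2140, 1883, 1517 and 1823 CPM, a ratio of 1.41. Rpsa, which is also known as a laminin receptor, had 2863, 2688, 2163 and 2421 CPM, a ratio of 1.32. Rps27l, a p53-inducible paralogue of Rps27, had 350, 359, 243 and 362 CPM, a ratio of 1.49, so that library 3 stood below the other three, which lay close together. Of the large subunit, Rpl5, which carries 5S ribosomal RNA into the ribosome and can restrain MDM2, had 1219, 1185, 937 and 1149 CPM, and Rplp0, Rpl3, Rpl7a, Rpl36a and Rpl7l1 were also lowest there, as was Rps19bp1.

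The members that were high in library 3 were low in library 2. Rps27 had 7434, 6393, 9184 and 7422 CPM and Rps27rt had 1849, 1238, 2692 and 1726 CPM, ratios of 1.44 and 2.17. Their sum was 9283, 7631, 11876 and 9147 CPM. Rpl6l had 446, 292, 518 and 371 CPM, a ratio of 1.77, and Rps28 had 4950, 3791, 5067 and 4582 CPM, a ratio of 1.34. Rpl37a and Rps15a were called as well. Outside the naming rule, Fau, which encodes a ubiquitin-like protein fused to a small subunit protein, had 4344, 4208, 4863 and 4194 CPM, and Rack1, a small subunit scaffold, had 1178, 1124, 998 and 1053 CPM. Neither reached 1.2-fold.

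**Figure D2:**
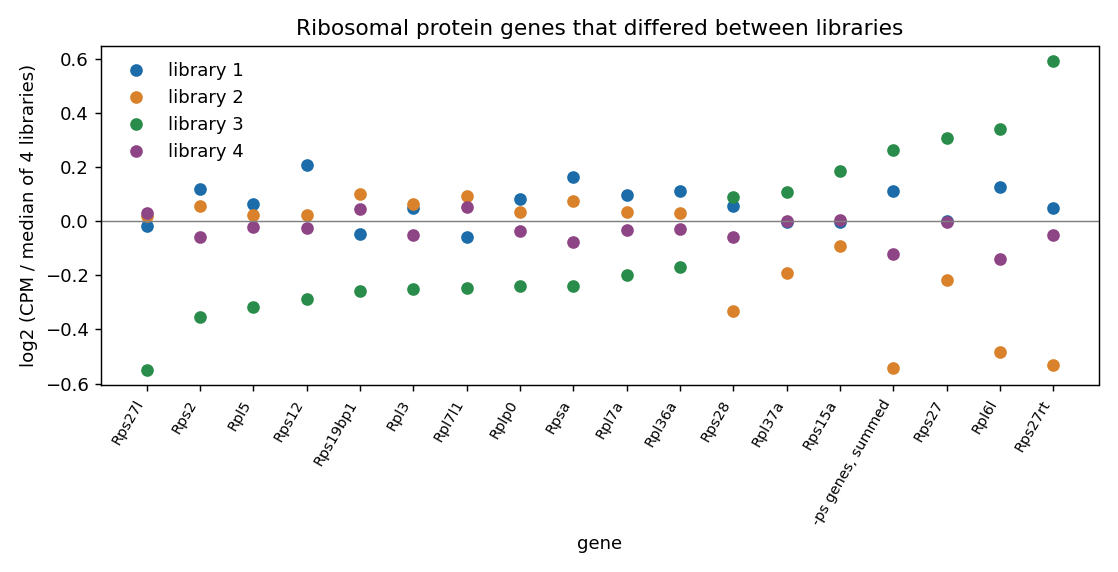
For the 17 members called between libraries and the summed -ps genes, log2 of each library's CPM over the median of the 4 libraries, ordered by library 3, with 1 point per library. Library 3 is the lowest point for 11 members and the highest for 6, and library 2 is lowest where library 3 is highest.

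Library 3 was also the shallowest, so the libraries were set side by side within cells of at least 2000 and under 4000 UMIs, a range chosen after the values were seen, which held 735, 1143, 1228 and 1173 cells. There the member share was 30.7%, 29.3%, 30.5% and 30.2%, and 7 members were called in place of 17, where the share of all genes was 24.1% in place of 46.5%. Rps2 had 2250, 2307, 2233 and 2287 CPM, a ratio of 1.03, so that no library stood out. Rpsa at 2222, 2113, 1890 and 1965 CPM and Rps12 at 1545, 1449, 1296 and 1425 CPM both fell short of 1.2-fold. Rps27 at 9007, 7572, 9671 and 8484 CPM, Rps27rt with a ratio of 1.88, Rpl6l with 1.89 and Rps28 with 1.37 were still called, as were Rpl5, Rps27l and Rpl7l1. Rpl5 at 1128, 1112, 891 and 1120 CPM stayed lowest in library 3. Rps27l had 233, 249, 220 and 287 CPM, so library 3 was lowest but close to library 1. Rpl7l1 had 55.7, 68.6, 58.6 and 75.6 CPM and was lowest in library 1 instead. What sets the order of libraries for these genes was not tested.

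Depth per cell moved with the members in each library. The share was 27.9%, 26.5%, 25.03% and 26.1% in the decile of cells with the fewest UMIs of libraries 1 to 4. It was highest in decile 8 of library 1 (34.2%), decile 8 of library 2 (31.7%), decile 10 of library 3 (33.5%) and decile 9 of library 4 (32.9%). In libraries 1, 2 and 4 it was lower again in the deepest decile, at 30.8%, 29.6% and 30.3%. Depth counts the member UMIs themselves, so both measures share them. The share of mitochondrial UMIs went the other way, with 2.53% to 2.69% in cells at or below their library's median depth and 2.26% to 2.36% above it.

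**Figure D3:**
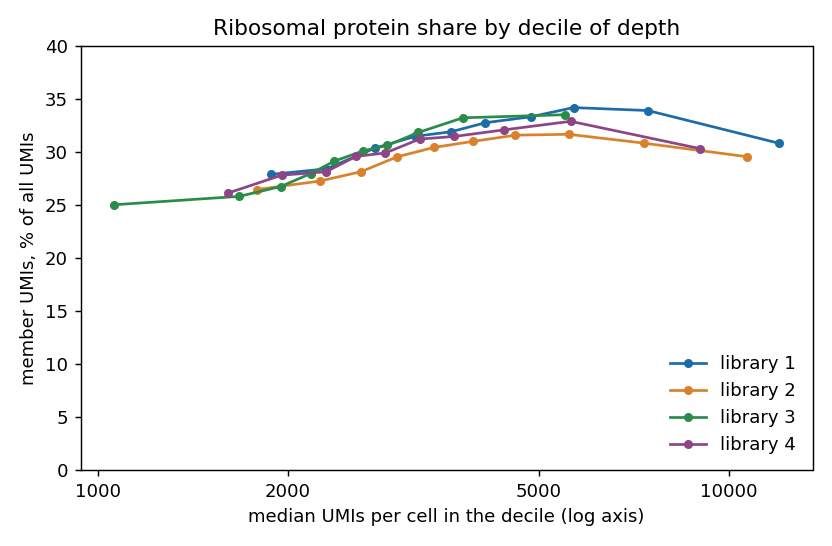
Member UMIs as a percentage of all UMIs against the median UMIs per cell (log axis) for the 10 deciles of depth in each library, 1 line per library. The share climbs from 25.03% to 27.9% in the shallowest decile to between 31.7% and 34.2% and then drops in the deepest decile of libraries 1, 2 and 4.

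Single members did not follow depth alike. Cells above their library's median depth were compared with the rest by the Mantel-Haenszel ratio of CPM over libraries. In this and the contrasts below a gene was called at 1.2-fold or more, with a counting interval off no change and the same direction in each library with at least 20 cells on both sides. The summed members had a log2 ratio of 0.13 (0.13 to 0.14). Higher in deep cells were 25 of 84 members, where 17.5% of all genes were, and lower were 2, where 30.1% of all genes were. Rps2 had 4131, 3955, 3028 and 3663 CPM in the deep cells of libraries 1 to 4 and 2203, 2128, 1686 and 1990 CPM in the shallow ones. Its log2 ratio was 0.89 (0.86 to 0.91), and it was higher in the deep cells of each library. Rps27l followed with 0.75, Rps12 with 0.66, Rpsa with 0.54, Rpl36a and Rpl3 with 0.49 each. Rps27 had 6789, 5888, 8920 and 6906 CPM in the deep cells and 9088, 7676, 9725 and 8658 CPM in the shallow ones, lower in each library, with a log2 ratio of -0.32 (-0.33 to -0.31). Rps27rt had -0.35. Rps15a at -0.23 and Rpl13a at -0.22 were the next lowest and were not called, and Fau, with -0.31, was called lower.

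The next comparison asked how the members stood in cells with an Il2ra transcript, which encodes the alpha subunit of the IL-2 receptor. Ribosomal protein transcripts were almost the same share of RNA in cells with and without one. Il2ra was found in 2437 cells and not in 5836, and its detection rose with depth, so cells were compared within library and decile of depth. The summed members had a log2 ratio of 0.007 (0.005 to 0.009), with 0.000, 0.017, -0.040 and 0.013 in libraries 1 to 4, so that library 3, with 139 such cells, went the other way. Without library 3 it was 0.011. For the members' share itself, cells with Il2ra had 32.2%, 30.5%, 31.3% and 31.1% and cells without it 31.8%, 29.7%, 30.5% and 30.2%, before depth was matched. With 1, 2 and 3 or more Il2ra UMIs (1233, 573 and 631 cells), the log2 ratio against cells with none was 0.010, 0.015 and 0.001.

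Of the 84 members, 1 was called higher with Il2ra, where 6.28% of 8070 genes were, and 0 were called lower, where 4.57% were. No test across cells was made. In all, 82 members lay within 0.1 of no change on the log2 scale, with a median of 0.011 against -0.008 over all genes tested. The called member was Rpl7l1, with 97.6, 101, 106 and 98.2 CPM in cells with Il2ra and 59.3, 72.8, 64.6 and 74.6 CPM in cells without. These CPM were taken before depth was matched, and those with Il2ra were higher in each library. At matched depth its log2 ratio was 0.40 (0.28 to 0.52), and it was 0.28, 0.48 and 0.51 at 1, 2 and 3 or more Il2ra UMIs. Rps19bp1 had 0.24 and was not called. After these came Rpl5 with 0.09, Rpl36al with 0.08 and Rpl38 with 0.06. At the lower end were Rps15a with -0.06, Rpsa with -0.04, and Rpl7, Rps29, Rps27 and Rpl10 with -0.03 to -0.02.

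Without matching for depth, within library only, 4 members were called higher, where 12.9% of all genes were: Rpl7l1 with 0.53, Rps2 with 0.33, Rps27l with 0.31 and Rps19bp1 with 0.31. Lower were 0 members, where 14.2% of all genes were. Rps2 had 3980, 3853, 3221 and 3612 CPM with Il2ra and 3211, 3033, 2519 and 2855 CPM without, higher with it in each library. At matched depth its log2 ratio was 0.04 (0.02 to 0.06). Rps27rt at -0.20, Rps27 at -0.18 and Rps15a at -0.18 were lowest without matching and were not called. Median depth was 4886, 4728, 3061 and 3915 UMIs in cells with Il2ra and 3324, 3109, 2460 and 2704 UMIs in cells without.

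Most of the listed genes that build ribosomes were called higher in cells with Il2ra. Of 24 tested ribosome biogenesis genes, 17 were called higher at matched depth and 0 lower, with a median log2 ratio of 0.46. Polr1b, a subunit of RNA polymerase I, had 1.09 (0.63 to 1.55). Nop16 had 0.69 (0.51 to 0.87) and Gnl3, which encodes nucleostemin, had 0.69 (0.52 to 0.86), while Ubtf was lowest at -0.18. Of 18 regulators of mTORC1, MYC and TOP translation, 2 were called higher: Myc with 1.21 (1.08 to 1.34) and Larp1, which binds TOP transcripts, with 0.61 (0.35 to 0.86). In that list 3 were called lower, the mTORC1 inhibitors Ddit4 with -0.50 and Sesn3 with -0.29, and the MYC antagonist Mxd4 with -0.47. Translation factors with TOP-type transcripts were called in 0 of 19 cases, with a median of 0.002. Among other initiation factors 2 of 17 were called higher, with a median of 0.18, and among mitochondrial ribosomal proteins 2 of 77, with a median of 0.06. These lists are set against the same 6.28% and 4.57% of all genes called. In the same comparison the summed T cell receptor and NF-kB list had 0.66, IL-2 and STAT5 0.66, Treg markers, which include Il2ra, 0.54, and NK markers 0.42, while T cell markers had -0.18 and G2 and M phase genes -0.36. Double-positive markers had -0.40, with 0.52 and 0.63 in libraries 1 and 3. Their part in the ratios above was not tested.

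**Figure D4:**
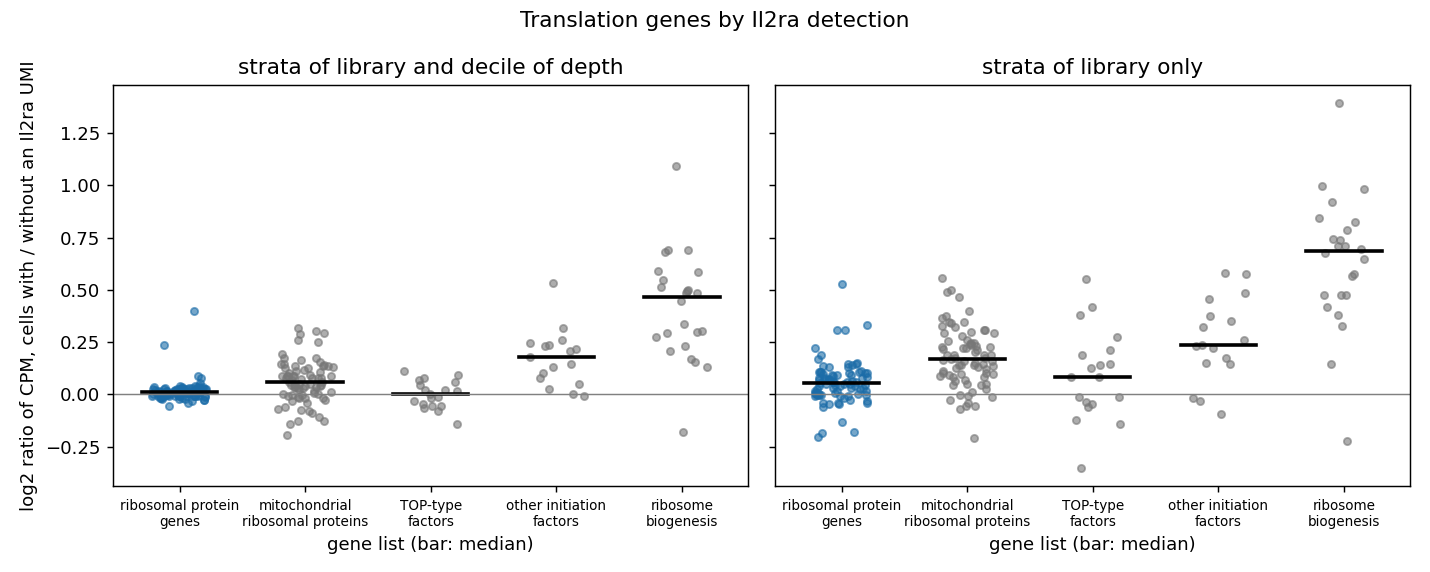
Log2 ratio of CPM in cells with over cells without an Il2ra UMI for each tested gene of 5 lists, 1 point per gene and a bar at the list's median, with cells compared within library and decile of depth (left) or within library only (right). The members sit at 0.01 in median on the left and the ribosome biogenesis genes at 0.46, and both are higher on the right.

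The second deposited table holds 7231 of the 8273 cells and is named for the G1 phase, the stretch of the cycle before DNA is copied. Its cells were set against the 1042 cells not in it, within library. Ribosomal protein transcripts took a larger share in the G1-table cells of each library, 32.7%, 30.98%, 30.8% and 31.2% against 29.1%, 26.4%, 28.3% and 27.02%. The log2 ratio of the summed members was 0.20 (0.19 to 0.20), or 1.15-fold, with 0.17, 0.23, 0.12 and 0.21 in libraries 1 to 4. Of the 84 members 17 were called higher, where 12.7% of 8071 genes were, and 0 lower, where 13.6% were. The median member had 0.19 and the median gene 0.05, and 79 members lay above 0.

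By gene, Rps15a had 7523, 7051, 8281 and 7453 CPM in G1-table cells and 5467, 5154, 6481 and 5452 CPM in the others, higher in each library, with a log2 ratio of 0.44 (0.43 to 0.46). Rps27 had 7851, 6706, 9268 and 7706 CPM against 5735, 5070, 8339 and 5832 CPM, a log2 ratio of 0.38 (0.37 to 0.40) that was smallest in library 3, at 0.15. Rps27rt had 0.42. Rps14 with 0.35, Rps7 with 0.34 and Rpl27 with 0.32 came next, all called. Lowest were Rps27l with -0.21, Rpsa with -0.15, Rps12 with -0.14, Rpl28 with -0.06, Rps19bp1 with -0.04 and Rps2 with 0.01, none of them called. Rpsa had 2787, 2683, 2096 and 2370 CPM in G1-table cells and 3174, 2713, 2845 and 2704 CPM in the others, and the gap was widest in library 3. Within library and decile of depth the summed log2 ratio was 0.19 and 9 members were called, where 10% of all genes were, and 0 lower, where 12.2% were, with Rps2 highest at 0.34.

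**Figure D5:**
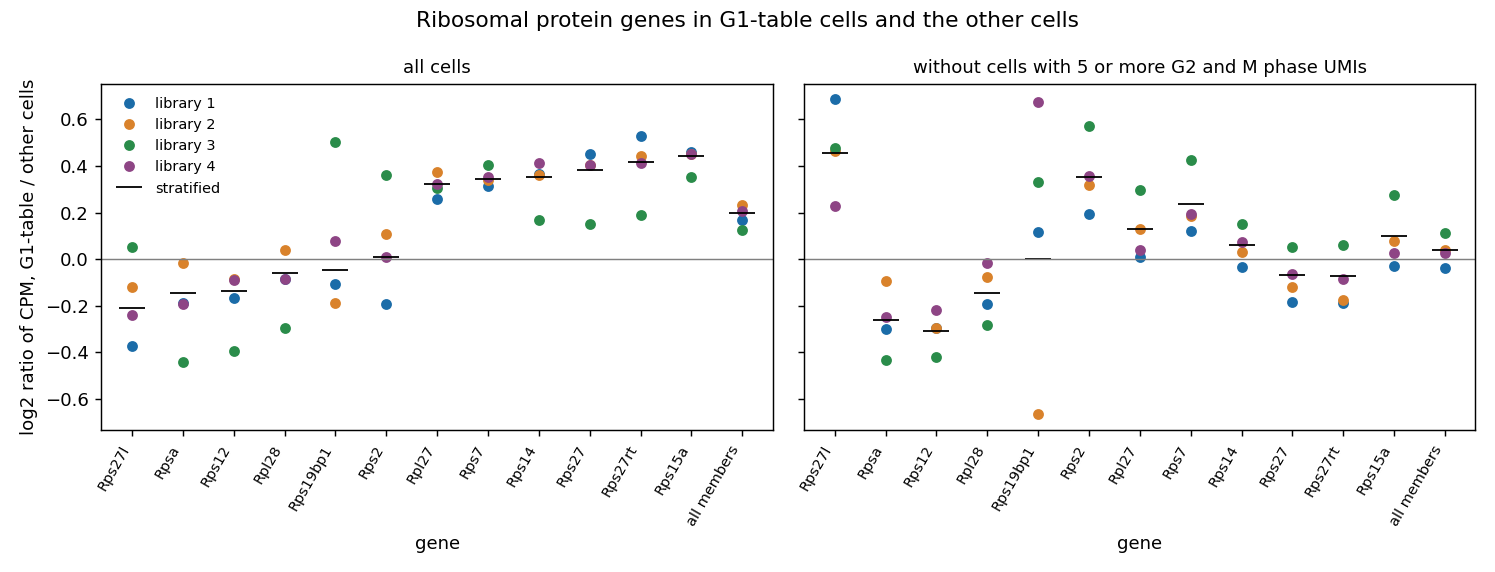
Log2 ratio of CPM in G1-table cells over other cells for the 6 lowest and 6 highest members and for all members summed, by library (points) and over libraries (bars), in all cells (left) and without cells with 5 or more G2 and M phase UMIs (right). The summed members lie at 0.20 on the left and 0.04 on the right, where Rps27 and Rps27rt lie below 0 over all libraries.

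Other transcripts moved with this comparison, those of cell division furthest among the cell state lists. As the table is named for G1, its cells may have been chosen by such transcripts, so that difference is not an independent result. The summed list of 16 G2 and M phase genes had a log2 ratio of -5.04, the 15 S phase genes had -1.38, and the protein genes of the mitochondrial genome had -0.37, with -1.11 in library 3. Higher in G1-table cells were the summed lists of interferon response (0.51), T cell receptor and NF-kB response (0.41), IL-2 and STAT5 (0.38), egress (0.37), Treg markers (0.28, with 0.01 in library 3) and T cell markers (0.23). Marker lists of other cells differed in whether they kept their sign over libraries. NK markers had 0.53, with -0.01 and -0.07 in libraries 3 and 4. Double-positive thymocyte markers had -0.83, with the opposite sign in library 1 and -2.15 in library 3. Erythroid markers had -7.91, with 5.06 in library 2, where they summed to only 6.21 CPM. Myeloid markers had -0.21 and kept their sign, with -0.27, -0.13, -0.24 and -0.28 in libraries 1 to 4. The part of these lists in the members' ratio was not tested. Cells with 5 or more G2 and M phase UMIs numbered 132, 254, 12 and 152 in libraries 1 to 4. Their members' share was 28.7%, 26.4%, 28.2% and 27.4%, and their median depths were 11197, 8997, 9792 and 9095 UMIs. The cells left out of the G1 table with fewer such UMIs had shares of 33.6%, 30.3%, 28.5% and 30.6%, beside 32.8%, 31.1%, 30.8% and 31.2% in G1-table cells with fewer such UMIs. Cells with 5 or more such UMIs, called dividing below, numbered 550 in all, and 146 of them were in the G1 table. Without the dividing cells the summed log2 ratio was 0.04, with -0.04, 0.04, 0.11 and 0.03 in libraries 1 to 4.

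Other members were then called. Without those 550 cells 7 were higher in G1-table cells, where 9.74% of all genes were: Rps27l with 0.46, Rpl22l1 with 0.44, Rpl7l1 with 0.41, Rps2 with 0.35, Rpl10 with 0.35, Rpl4 with 0.29 and Rpl3 with 0.28. Only Rps12 was lower, with -0.31 (-0.36 to -0.26), where 11.1% of all genes were. Rps15a then had 0.10 and Rps27 -0.07. The remaining cells outside the table were shallow, with median depths of 2466, 2368, 1445 and 2365 UMIs against 3788, 3532, 2589 and 2978 UMIs in the table, and mitochondrial transcripts made up 4.53%, 4.78%, 5.19% and 4.14% of their UMIs against 2.38%, 2.28%, 2.18% and 2.28%. The part of depth and mitochondrial share in these ratios was not tested.

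The state of the cell was described with 8 gene lists, comparing cells above the median of a list with the rest of the same library and decile of depth. Each list was scored as its share of the UMIs outside members. More member UMIs leave fewer UMIs outside, which raises the score at equal list counts. The list UMIs come from those same UMIs outside, so their counts can fall as well. The ratios of summed and single members may therefore be tilted, and the direction and size of any tilt were not tested. Summed members were lower in cells rich in G2 and M phase transcripts, with a log2 ratio of -0.15 and -0.12 to -0.17 by library, where 1531 cells lay above the median. They were higher in cells rich in transcripts of the mitochondrial genome, with 0.14 and 0.12 to 0.15 by library. The other lists gave small values: 0.03 for IL-2 and STAT5 targets, 0.03 for late maturation and egress, 0.02 for interferon response, -0.005 for T cell receptor and NF-kB response, -0.03 for S phase and -0.01 for ribosome biogenesis. Library 3 had the opposite sign from the whole for S phase, at 0.03, and for interferon response, at -0.002, and library 4 for the T cell receptor and NF-kB list, at 0.005.

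Single members had larger values along these lists. In cells rich in ribosome biogenesis transcripts Rps19bp1 had a log2 ratio of 0.96, Rpl7l1 0.80, Rps27l 0.45 and Rpl36al 0.36, while Rpl6l, also scarce, had 0.02 and Rps15a and Rpl13a had -0.10. In cells rich in egress transcripts, such as S1pr1 and Klf2, Rps19bp1 had -0.73, Rpl7l1 -0.48, Rps27l -0.47 and Rps2 -0.23, while Rps27rt and Rpl13a had 0.16, Rps15a 0.15 and Rps27 0.12. In cells rich in T cell receptor response transcripts Rps19bp1 had 0.58 and Rpl7l1 0.54, and Rps27l had 0.09. In cells rich in mitochondrial transcripts Rps12 had 0.30 and Rps2 0.28. A class above a median is a range of cells, not a cell type. For the T cell receptor and NF-kB list 25 cells lay at the median, for the G2 and M phase list 6310.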

How the data were processed

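Single-cell 3′ libraries of sorted thymic Treg cells were analysed. The count table that the authors deposited holds whole UMI counts for 27998 genes in 8273 cells. The deposited G1 table gives log2 values of 9571 genes for 7231 of these cells, each equal to the log2 of the count over 1 factor per cell, plus 1 (largest relative deviation 1.1e-14). Build mm10, R 3.4.1, Cell Ranger 2.0.2 and CASAVA 2.20 are named per the submitters' processing notes. Their cell filter and phase calling are not given in the sources used here. Symbols came from GENCODE M21 (27645 identifiers matched, 353 not). All cells were used, without a doublet caller, and the deepest 5% per library were left out as an alternative.

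CPM are UMIs scaled to a total of 1000000. Ratios are Mantel-Haenszel ratios over libraries, or over libraries and 10 strata of depth each, with 0.5 UMIs added for the log and 95% counting intervals. The procedure was tested on simulated counts drawn from each library's summed profile with counting error only. That simulation does not cover variation between cells. Members and lists were chosen with earlier results of these data known. Named genes are the 6 members with the largest and the 6 with the smallest ratio in the Il2ra and G1 comparisons, the 8 that varied most between libraries, the 5 most and 5 least abundant, both members beside the minimum of UMIs, paralogue pairs, stalk proteins, and up to 4 per pathway list. The contrast by depth, the genes named in it, in the cell state lists and in the comparison without dividing cells, the other members called between libraries, and the stricter double-positive class were chosen after values were seen. Rps4l was not analysed here. Some genes that these rules name are not reported here. Tools were matplotlib 3.10.9, pandas 2.3.3, scipy 1.17.1, numpy 2.4.6 and Python 3.11.15.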

Additional observations from a re-analysis of the deposited data

Results flagged for a closer look

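Genes named as ribosomal protein pseudogenes (-ps), which the naming rule leaves out, held 186084 UMIs in all, a signal outside the measured set. They numbered 16, of which 11 are annotated as pseudogenes and 5, Rpl10-ps3 among them, as protein coding, and 12 had 200 or more UMIs. The summed UMIs were 51522, 46745, 41459 and 46358 in libraries 1 to 4, or 6530, 4146, 7251 and 5552 CPM, which is 2.04, 1.38, 2.37 and 1.82 UMIs per 100 member UMIs. Library 2 was lowest for each of the 12, and library 3 was highest for 10 of them and library 1 for 2, with ratios of highest to lowest from 1.55 to 2.55. Among cells of at least 2000 and under 4000 UMIs the sum was 5934, 3866, 7137 and 5265 CPM. Rpl23a-ps3 and Rpl10-ps3 held the most, with 37173 and 31652 UMIs. Reads of these genes and of their parents cannot be told apart where their sequence is shared.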

How the results depend on the processing

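No paired analysis was possible because each genotype has 1 sample and no suffix is tied to one. Cells are not replicates, so values with no replicate error are listed wherever they left the counting interval, which is very narrow at this depth. The member share (30.75%) was 30.80% in cells with 500 or more genes and at most 10% mitochondrial UMIs, 30.81% without the deepest 5% of cells, 31.40% in G1-table cells, 30.80% without cells with double-positive thymocyte UMIs, 31.42% without dividing cells, 30.03% with each cell counted alike, and 30.37% to 31.09% leaving out each library. Of the settings added after the values were seen, it was 30.53% without Rpl6l, Rps27rt and Rps19bp1 and 30.93% without the decile of cells with the fewest UMIs.

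The ratio of the highest to the lowest library (1.06) was 1.09 over UMIs outside members and the mitochondrial genome, 1.08 with median of ratios scaling, 1.07 without the deepest cells, 1.06 in G1-table cells, 1.07 without dividing cells, 1.07 with each cell counted alike, 1.02 to 1.06 leaving out each library, and, as added settings, 1.06 without the 3 uncertain members, 1.06 in G1-table cells with no Il2ra UMI and 1.05 in cells with at least 2000 and under 4000 UMIs. Members called between libraries (17, with 46.5% of all genes called) were 2 at 1.5-fold (24.7%), 47 at 1.1-fold (51.1%), 3 to 17 leaving out each library, with 3 reached without library 3 (13.9%), 11 in G1-table cells with no Il2ra UMI (32.6%) and 7 in cells with at least 2000 and under 4000 UMIs (24.1%).

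The log2 ratio of summed members by Il2ra (0.007) stayed near 0 and changed sign under some settings. It was 0.0094 over UMIs outside members, 0.012 with median of ratios scaling, -0.011 in G1-table cells, -0.011 without dividing cells, 0.0045 with each cell counted alike, 0.0010 to 0.011 leaving out each library, 0.032 within library only, 0.025 with strata of UMIs outside members, -0.0096 with detection after thinning and -0.0077 in the normalized table. Members called higher (1, with 6.28% of all genes) were 4 within library only (12.9%), 0 at 1.5-fold (1.47%) and 1 to 2 leaving out each library, with 2 reached without library 4 (7.35%).

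The G1-table log2 ratio (0.20) was 0.27 over UMIs outside members, 0.17 with median of ratios scaling, 0.19 in cells with 500 or more genes, 0.21 without the deepest cells, 0.19 without double-positive cells, 0.039 without dividing cells, 0.19 without erythroid cells, 0.13 with each cell counted alike, 0.18 to 0.21 leaving out each library, 0.19 with strata of depth and 0.21 without the decile of cells with the fewest UMIs. Members called higher (17, with 12.7% of all genes) were 36 over UMIs outside members (17.5%), 7 without dividing cells (10.3%, among genes with 200 UMIs in the cells left), 11 with each cell counted alike (12.7%), 9 with strata of depth (10%), 0 at 1.5-fold (3.12%) and 56 at 1.1-fold (16.6%), and 14 to 20 leaving out each library (13.03% to 19.5%). Members called lower (0, with 13.6% of all genes) were 1 without dividing cells (11.03%), 2 with each cell counted alike (13.4%) and 2 at 1.1-fold (14.8%). Without dividing cells 29 of the 84 members changed sign in the G1 comparison. Of the 17 called there, 4 did: Rpl13a at -0.041, Rps27 at -0.066, Rps27rt at -0.070 and Rpl17, named after its value was seen, at -0.002. Among uncalled ones Rps27l went from -0.21 to 0.46. Over all alternatives for the named members, 883 values kept within their interval or call, 335 moved and 3 called values, those of Rpl13a, Rps27 and Rps27rt, reversed. Why settings differ was not tested.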
